A study of Mus musculus with 18 samples.

Results

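The 9 genes described here write, maintain, remove or read methyl groups on cytosine: Dnmt1, Dnmt3a, Dnmt3b and Uhrf1 on the writing side, Tet1, Tet2, Tet3 and Tdg on the erasing side, and Mbd2 as a reader. They were chosen by symbol from the 21761 genes of the expression table, and all 9 had a row. RNA-seq had been carried out on 5000 sorted mouse B lineage cells per library, in 18 libraries that form 6 groups of 3. The 3 cell types were naive B cells of lymph node (nB, B220+ Fas- GL7-), germinal center B cells of lymph node that bound the immunogen phycoerythrin (GCB, B220+ Fas+ GL7+ PE+) and plasma cells of bone marrow (BMPC, CD138+).

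All mice carried loxP-flanked alleles of both de novo methyltransferase genes, as Dnmt3a fl/fl and Dnmt3b fl/fl, on a mixed B6;129S4 background. Dnmt3-sufficient mice had no Cre recombinase and kept both genes intact. Dnmt3-deficient mice also carried a Cre allele that is active in the B cell lineage, which deletes the part encoding the catalytic motifs PC and ENV. The genotypes thus differ in the Cre allele as well as in the deletion. Mice were 8 to 12 weeks old at the start, GCB and BMPC were taken 30 days after immunization with phycoerythrin in complete Freund's adjuvant, and each GCB library came from 2 pooled mice. Per the study, nB came from unimmunized mice, so each comparison with nB also sets immunized against unimmunized mice. Each group held males and females.

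Dnmt1 copies methylation onto the new strand after replication, and Uhrf1 brings it there by binding hemimethylated CpG sites. Dnmt3a and Dnmt3b place methyl groups on unmethylated sites. Tet1, Tet2 and Tet3 oxidize methylcytosine, and the glycosylase Tdg cuts out the most oxidized forms so that base excision repair can restore cytosine. Mbd2 binds methylated CpG and brings the NuRD deacetylase and remodeling complex. Germinal center B cells divide fast, so that methylation has to be copied often, and plasma cells mostly leave the cell cycle.

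On the mouse genome build mm9, which the deposited values use, the annotation placed Dnmt1 at chr9:20711650-20757317 on the minus strand, Uhrf1 at chr17:56442744-56462909, Dnmt3a at chr12:3806007-3914443 and Dnmt3b at chr2:153475186-153513466. The erasers lie at chr10:62267318-62361866 (Tet1, minus strand), chr3:133126643-133207354 (Tet2, minus strand), chr6:83312367-83391672 (Tet3, minus strand) and chr10:82092573-82113544 (Tdg). The values cover the summed exons of each gene, from 3218 bases for Tdg to 14375 bases for Tet1.

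The motifs that the conditional alleles remove are short, and the coding stretches around them are shown because they set what the RNA values can say about the deletion. They were found by translating the annotated coding sequence, and are given 5′ to 3′ on the coding strand with the codons of the motif (PC or ENV) in capitals.
Dnmt3a, PC, chr12:3902399-3902452: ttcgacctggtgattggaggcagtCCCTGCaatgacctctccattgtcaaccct
Dnmt3b, PC, chr2:153502925-153502978: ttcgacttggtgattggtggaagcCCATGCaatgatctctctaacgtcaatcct
Dnmt1, PC, chr9:20716233-20716286: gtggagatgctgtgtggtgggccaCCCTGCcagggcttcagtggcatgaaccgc
Dnmt3a, ENV, chr12:3902734-3902790: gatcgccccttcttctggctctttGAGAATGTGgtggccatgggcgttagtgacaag
Dnmt3b, ENV, chr2:153503315-153503371: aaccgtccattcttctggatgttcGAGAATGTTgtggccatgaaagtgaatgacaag
Dnmt1, ENV, chr9:20715933-20715989: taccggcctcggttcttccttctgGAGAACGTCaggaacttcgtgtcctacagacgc
In Dnmt3a the motifs sit in exons 18 and 19 of 23, and in Dnmt3b in exons 19 and 20 of 24. These 2 exons hold 240 bases in either gene, which is 2.13% of the exon bases counted for Dnmt3a and 5.55% of those counted for Dnmt3b. A transcript that lacks only these exons but is otherwise stable would keep nearly all of its exon reads. The positions of the loxP sites were not looked up, so the deleted part may be larger. The gene-level value is therefore not taken as a check of the deletion, and reads within the exons were not analysed here.

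Levels are given in FPKM, reads per kilobase of exon scaled to the reads on genes of a library. BMPC libraries held 1355231 to 3803197 reads on genes, fewer than nB (6692516 to 8987922) and GCB (7644544 to 8903872), and low genes are therefore measured least well in BMPC. Marker genes followed the labels: 6 nB markers summed to 1781 to 1945 FPKM in nB and at most 218 elsewhere, 5 GCB markers to 603 to 702.6 FPKM in GCB and at most 73.1 elsewhere, and 6 plasma cell markers to 17008 to 48114 FPKM in BMPC and at most 917 elsewhere. Markers of other cells were read in all 3 cell types. In BMPC 7 neutrophil genes summed to 9.37 to 582 FPKM and were at 0 in all 12 other libraries. The 4 erythroid genes summed to 1160 to 2194 FPKM in sufficient and 149 to 797 FPKM in deficient BMPC, to 0.468 to 1.42 FPKM in sufficient and 22.5 to 218 FPKM in deficient nB, and to 0.352 to 11.6 FPKM in GCB. The 4 macrophage genes summed to 60.0 to 87.7 FPKM in sufficient and 98.4 to 227 FPKM in deficient BMPC, to 1.70 to 73.9 FPKM in nB and to 10.95 to 19.7 FPKM in GCB. The 5 T cell genes summed to 57.2 to 147 FPKM in nB, 77.4 to 134 FPKM in GCB and 74.3 to 218 FPKM in BMPC. In BMPC 7 genes of early B cells to 415 to 808 FPKM against 185 to 378 FPKM in the rest. The part of these cells in the values below was not tested. In bulk samples, fewer cells that express a gene and less RNA per cell cannot be told apart.

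The targeted genes were examined first. Dnmt3a measured 5.18, 3.48 and 2.35 FPKM in Dnmt3-sufficient nB and 4.33, 2.24 and 3.86 FPKM in Dnmt3-deficient nB. In GCB it measured 0.378, 0.289 and 0.0232 FPKM in sufficient and 0.362, 0.213 and 0.220 FPKM in deficient libraries. In BMPC it measured 0.768, 0 and 0.734 FPKM against 0.0544, 3.08 and 0.549 FPKM. The genotypes overlapped in every cell type, whereas all nB libraries lay above all GCB libraries. Dnmt3b measured 1.18, 4.33 and 6.41 FPKM in sufficient nB and 0.521, 8.15 and 3.0 FPKM in deficient nB. In GCB it measured 0, 0.676 and 0.303 FPKM in sufficient and 1.10, 0.805 and 0.744 FPKM in deficient libraries, and in BMPC 1.37, 0 and 0 FPKM against 0, 1.88 and 9.29 FPKM. Here the 3 deficient GCB libraries lay above the 3 sufficient ones, and the BMPC libraries ranged from no read to 91 reads within 1 genotype.

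No difference between genotypes was detected in the RNA of either targeted gene by limma on log2(FPKM + 1), a scale that understates the change of low genes. The Dnmt3a difference, deficient minus sufficient, was -0.05 ± 0.46 (SE, n = 3 per group) for nB, 0.05 ± 0.46 for GCB and 0.37 ± 0.46 for BMPC. The Dnmt3b difference was -0.21 ± 0.76 for nB, 0.53 ± 0.76 for GCB and 1.21 ± 0.76 for BMPC. The fit draws 1 spread per gene from all 18 libraries, so the SE of a gene is the same in each cell type. It does not measure the spread within GCB or BMPC alone, so the missing call in GCB does not show that Dnmt3b was level there. The limma adjusted p-values, taken over all 11522 genes tested, were between 0.40 and 1. The 95% confidence interval of the Dnmt3a difference ran from -1.02 to 0.92 in nB and that of Dnmt3b from -1.81 to 1.39. Changes in total RNA within these intervals were not excluded.

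**Figure D1:**
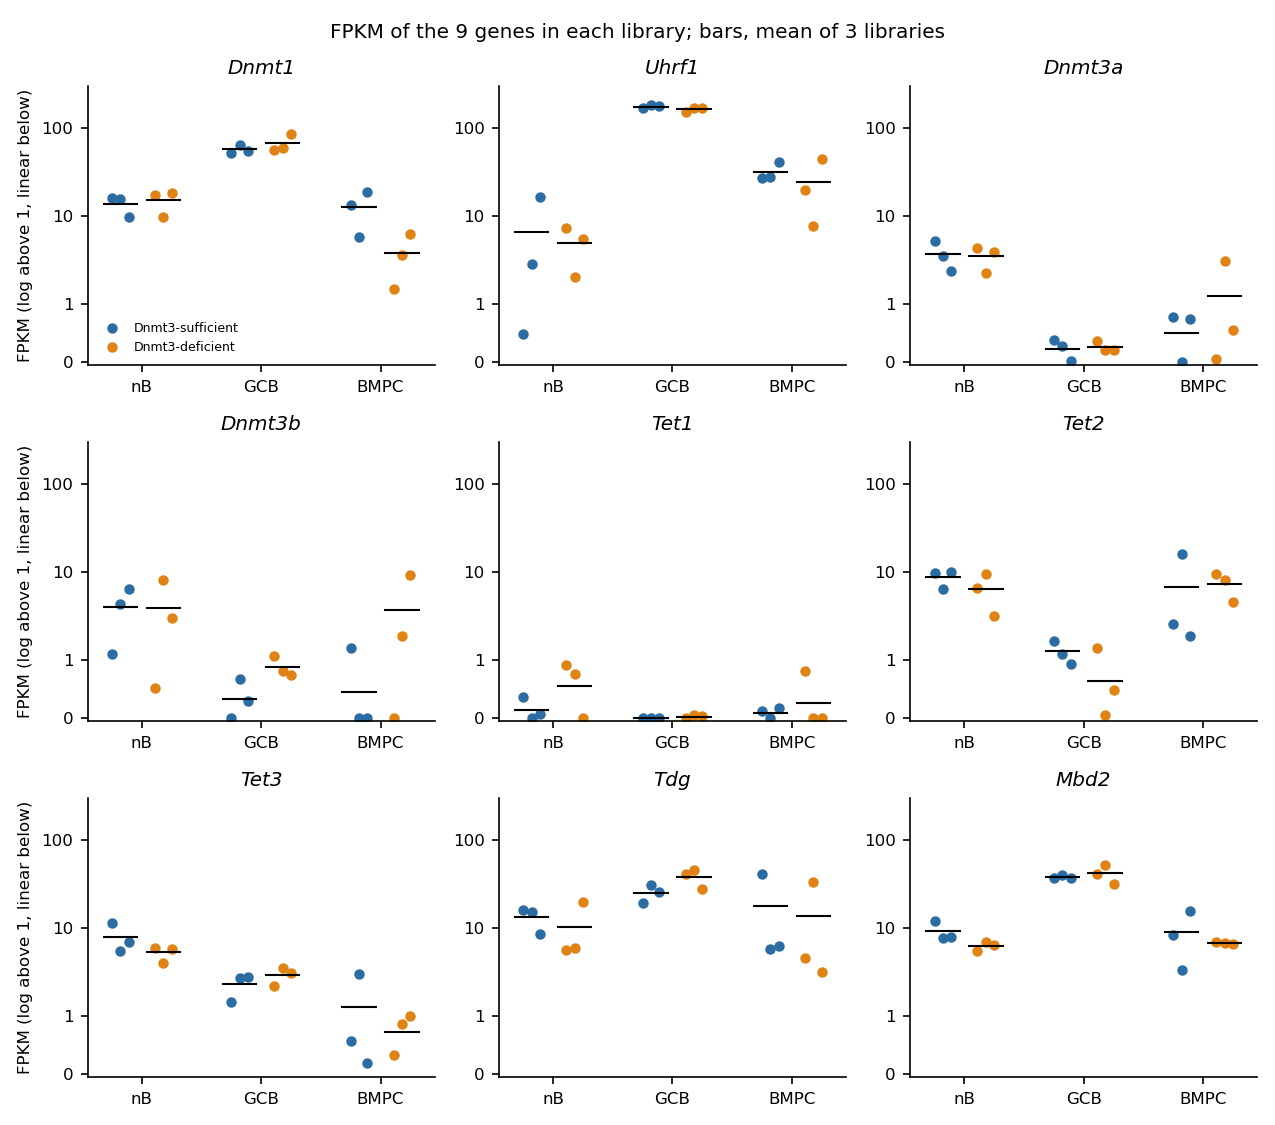
Level of each of the 9 genes in each of the 18 libraries (points) with the mean of the 3 libraries of a group (bars). The vertical axis is FPKM, logarithmic above 1 and linear below; blue points are Dnmt3-sufficient and orange points Dnmt3-deficient. Uhrf1, Dnmt1 and Mbd2 sit highest in GCB, where Uhrf1 reaches 152 to 182 FPKM, while Tet2 sits lowest there, at no more than 1.65 FPKM. Dnmt3a is at no more than 0.378 FPKM in GCB and overlaps BMPC, where it is at 0 to 3.08 FPKM.

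On the log2(FPKM + 1) scale, the largest difference among the 8 genes tested was that of Uhrf1 between GCB and nB. Uhrf1 measured 0.491, 2.83 and 16.2 FPKM in sufficient nB and 7.20, 2.03 and 5.45 FPKM in deficient nB. In GCB it measured 167, 182 and 176 FPKM in sufficient and 152, 169 and 168 FPKM in deficient libraries. In BMPC it measured 26.9, 28.0 and 40.7 FPKM against 19.6, 7.68 and 44.8 FPKM. All 6 GCB libraries lay above every other library, with a coefficient of variation of 5.97% across them, while nB libraries had one of 99.7%. Mean FPKM was 26.9-fold higher in GCB than in nB in sufficient mice and 33.3-fold higher in deficient mice. In GCB the mean of Uhrf1 exceeded that of 94.9% of the genes tested, against 40.3% in nB.

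Dnmt1, the partner that Uhrf1 recruits, rose in the same cells but less. It measured 16.1, 15.6 and 9.59 FPKM in sufficient nB, 17.2, 9.70 and 18.4 FPKM in deficient nB, 52.2, 63.6 and 55.1 FPKM in sufficient GCB, and 56.5, 58.9 and 85.4 FPKM in deficient GCB. In BMPC it measured 13.3, 5.70 and 18.5 FPKM in sufficient and 1.49, 3.58 and 6.17 FPKM in deficient libraries. GCB means were 4.14-fold and 4.43-fold those of nB in the respective genotypes, with no overlap of libraries. Since FPKM is per length, the 2 genes can be set side by side: nB libraries had a ratio of Uhrf1 to Dnmt1 of 0.0305 to 1.69, GCB libraries one of 1.97 to 3.20 and BMPC libraries one of 2.02 to 13.2. Thus Uhrf1 RNA was below Dnmt1 RNA in 5 of 6 nB libraries and above it in all 12 others.

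Dnmt1 made up most of the methyltransferase RNA in GCB, in sufficient BMPC and in most nB libraries. Its share of the summed FPKM of Dnmt1, Dnmt3a and Dnmt3b was 48.3 to 78.0% in nB and 97.5 to 99.4% in GCB. In BMPC the share was 86.2 to 100% in sufficient libraries and 96.5, 41.9 and 38.5% in deficient ones. Dnmt3a was at 3.08 FPKM in the second and Dnmt3b at 9.29 FPKM in the third of these, and Dnmt1 was at its lowest in deficient BMPC.

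Mbd2, the methyl reader, lies at chr18:70727843-70785785 and was also highest in GCB. It measured 12.1, 7.75 and 7.95 FPKM in sufficient nB, 5.49, 6.96 and 6.39 FPKM in deficient nB, 37.3, 39.8 and 36.7 FPKM in sufficient GCB, and 41.4, 52.2 and 31.4 FPKM in deficient GCB. The BMPC libraries measured 8.22, 3.30 and 15.6 FPKM in sufficient and 6.98, 6.73 and 6.54 FPKM in deficient mice. GCB did not overlap the other cell types, and nB and BMPC overlapped fully.

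The Tet genes differed in level and order. Tet2 measured 9.76, 6.41 and 10.1 FPKM in sufficient nB and 6.51, 9.51 and 3.16 FPKM in deficient nB. In GCB it was at 1.65, 1.15 and 0.932 FPKM and at 1.37, 0.0666 and 0.492 FPKM. In BMPC it was at 2.53, 16 and 1.86 FPKM in sufficient and 9.35, 8.19 and 4.49 FPKM in deficient libraries. All GCB libraries lay below all libraries of the other cell types, and BMPC overlapped nB.

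Tet3 was lower in GCB than in nB and lower again in BMPC. It measured 11.4, 5.46 and 6.92 FPKM in sufficient nB, 5.97, 4.02 and 5.77 FPKM in deficient nB, 1.43, 2.71 and 2.79 FPKM in sufficient GCB, and 2.16, 3.52 and 3.04 FPKM in deficient GCB. In BMPC it measured 0.575, 3.01 and 0.199 FPKM and 0.331, 0.865 and 0.995 FPKM. The nB libraries lay above all others, and 1 BMPC library lay within the GCB range. Tet2 made up 35.4 to 66.6% of the summed FPKM of the 3 Tet genes in nB and 1.83 to 53.6% in GCB. Its share was 78.3 to 90.4% in BMPC, with no overlap with the other cell types.

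Tet1 was barely read. Its highest value was 0.914 FPKM, from 105 reads in a deficient nB library, and 8 of 18 libraries had no Tet1 read, 2 of them nB, 3 GCB and 3 BMPC. In those libraries a count of 0 allows up to 3 reads, a limit that covers counting error only. Since no library reached 1 FPKM, Tet1 was left out of the fit and 8 of the 9 genes were tested. Tdg was read in every library but varied widely. Its nB libraries held 5.68 to 19.5 FPKM, its GCB libraries 19.1 to 45.1 FPKM and its BMPC libraries 3.15 to 41.0 FPKM. In BMPC, 1 library of each genotype held 41.0 or 33.5 FPKM and the other 4 held 3.15 to 6.25 FPKM.

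Which of these differences exceeded the spread between libraries was tested with limma on all genes, with a call where the adjusted p was no more than 0.05 and the size of the change no less than 1 on the log2(FPKM + 1) scale. Between GCB and nB of sufficient mice, 5 of the 8 genes tested were called, 3 higher and 2 lower, where 14.2% of all genes tested were called. In deficient mice the count was again 5 of 8, against 12.9% of all genes, and the same 5 genes passed in both genotypes. Uhrf1 rose by 5.25 ± 0.71 (SE, limma adjusted p = 6.3e-05) in sufficient and 4.92 ± 0.71 (adjusted p = 0.00013) in deficient mice. The rise of Dnmt1 was 2.00 ± 0.48 (adjusted p = 0.0076) and 2.1 ± 0.48 (adjusted p = 0.0060), and that of Mbd2 was 1.95 ± 0.44 (adjusted p = 0.0057) and 2.53 ± 0.44 (adjusted p = 0.00082).

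Dnmt3a and Tet2 were the 2 genes called lower in GCB than in nB. The Dnmt3a change was -1.89 ± 0.46 (limma adjusted p = 0.0086) in sufficient and -1.79 ± 0.46 (adjusted p = 0.013) in deficient mice. The Tet2 change was -2.11 ± 0.61 (adjusted p = 0.027) and -2.15 ± 0.61 (adjusted p = 0.025). Both Tet2 calls depended on single libraries: the adjusted p rose to as much as 0.089 in sufficient mice on leaving out any of nB replicates 1 and 3 and GCB replicates 1, 2 and 3, and to 0.12 in deficient mice on leaving out nB replicate 1 or 2 or GCB replicate 2 or 3. The deficient Dnmt3a call was lost without nB replicate 1 (adjusted p = 0.056) or GCB replicate 2 (0.0502). The other 3 tested genes did not pass. The Tet3 difference was -1.41 ± 0.48 (adjusted p = 0.056) in sufficient and -0.68 ± 0.48 in deficient mice, and the former passed without sufficient BMPC replicate 2 (adjusted p = 0.020) or 3 (0.039), which enter through the shared spread. For Tdg it was 0.89 ± 0.78 and 1.96 ± 0.78 (adjusted p = 0.11), and the latter passed without deficient BMPC replicate 2 (adjusted p = 0.043). For Dnmt3b it was -1.77 ± 0.76 (adjusted p = 0.14) and -1.02 ± 0.76.

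**Figure D2:**
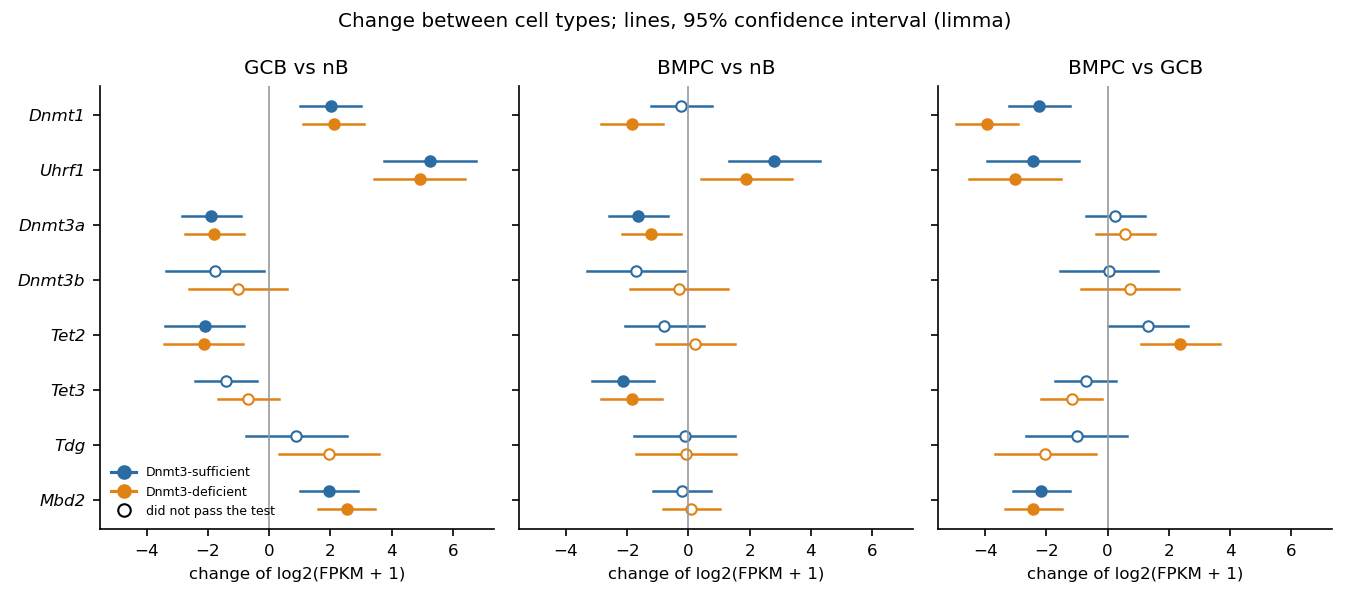
Change of the 8 tested genes between cell types, on the log2(FPKM + 1) scale, in Dnmt3-sufficient (blue) and Dnmt3-deficient (orange) mice. Points are limma estimates, lines their 95% confidence intervals, and open points did not pass the test. From nB to GCB the intervals of Uhrf1, Dnmt1 and Mbd2 lie above 0 and those of Dnmt3a and Tet2 below 0 in both genotypes; from nB to BMPC Tet3 and Dnmt3a lie below 0 and Uhrf1 above 0.

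Between BMPC and nB, 3 of 8 genes were called in sufficient mice, where 37.3% of all genes tested were called, and 4 of 8 in deficient mice, against 37.4%, so the counts were near those of all genes. The median change of all genes was -0.70 and -0.84, and scaling by the median of ratios moved the latter to -0.69. Tet3 fell by 2.13 ± 0.48 on the log2 scale (limma adjusted p = 0.0021) in sufficient and by 1.86 ± 0.48 (adjusted p = 0.0058) in deficient mice. Dnmt3a fell by 1.64 ± 0.46 (adjusted p = 0.0096) and by 1.22 ± 0.46 (adjusted p = 0.043). Uhrf1 rose by 2.81 ± 0.71 (adjusted p = 0.0049) and by 1.89 ± 0.71 (adjusted p = 0.042). The deficient Dnmt3a and Uhrf1 calls stood near the threshold. Both were lost on leaving out sufficient nB replicate 2, deficient nB replicate 3, any 1 of the GCB libraries or deficient BMPC replicate 1 or 3, the Dnmt3a call also without deficient nB replicate 1 and the Uhrf1 call without deficient nB replicate 2, with an adjusted p of at most 0.18 and 0.17. Neither Tet2 (-0.79 ± 0.61 and 0.22 ± 0.61) nor Dnmt3b (-1.73 ± 0.76, adjusted p = 0.081, and -0.30 ± 0.76) passed, while the differences of Tdg and Mbd2 lay between -0.21 and 0.10. The sufficient Dnmt3b difference passed without deficient BMPC replicate 1 (adjusted p = 0.047) or 3 (0.039).

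Dnmt1 was called lower in BMPC than in nB in deficient mice only, at -1.84 ± 0.48 (limma adjusted p = 0.0060), with -0.23 ± 0.48 in sufficient mice. The deficient call was lost with only the groups compared in the fit and when recovered reads were tested with voom. The test of the difference between these changes did not pass, at -1.62 ± 0.67 (adjusted p = 0.35). The direct comparison of deficient with sufficient BMPC gave -1.51 ± 0.48 (adjusted p = 0.079), with 1 of 3 sufficient libraries (5.70 FPKM) within the range of the deficient ones. Without that library, sufficient BMPC replicate 2, the difference was -1.94 and passed (adjusted p = 0.020), and without deficient BMPC replicate 3 it was -1.87 and passed (adjusted p = 0.031). The deficient libraries held 17, 34 and 98 Dnmt1 reads, so counting error alone is large there. The 8 cell cycle genes summed to 469 to 768 FPKM in sufficient and 371 to 446 FPKM in deficient BMPC, and the 6 plasma cell markers to 17008 to 26871 FPKM and 31160 to 48114 FPKM. The part of these, and of the erythroid and macrophage genes given above, in the Dnmt1 difference was not tested.

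From GCB to BMPC, 3 of 8 genes were called in sufficient mice, against 27.6% of all genes tested, and 4 of 8 in deficient mice, against 32.3%. The 3 genes called higher in GCB than in nB were called lower here. The change of Dnmt1 was -2.23 ± 0.48 (limma adjusted p = 0.0021) and -3.94 ± 0.48 (adjusted p = 1.1e-05), that of Uhrf1 -2.44 ± 0.71 (adjusted p = 0.015) and -3.02 ± 0.71 (adjusted p = 0.0036), and that of Mbd2 -2.16 ± 0.44 (adjusted p = 0.0016) and -2.43 ± 0.44 (adjusted p = 0.00054). Tet2 was the member called higher, by 2.37 ± 0.61 (limma adjusted p = 0.0070) in deficient mice. In sufficient mice the change was 1.32 ± 0.61 (limma adjusted p = 0.12), and their 3 BMPC libraries all lay above their 3 GCB libraries. It passed there without BMPC replicate 3 (1.80, adjusted p = 0.044). The remaining genes did not pass, with Tdg at -1.02 ± 0.78 and -2.03 ± 0.78 (adjusted p = 0.053) and Tet3 at -0.72 ± 0.48 and -1.18 ± 0.48 (adjusted p = 0.066). The deficient Tdg difference passed without any 1 of the sufficient BMPC libraries or without deficient BMPC replicate 2 (-2.98, adjusted p = 0.0043). Tet3 passed in both genotypes without sufficient BMPC replicate 2 (adjusted p = 0.047 and 0.028), and in deficient mice without sufficient BMPC replicate 3 (0.047).

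Pooling the genotypes gave 6 libraries against 6 and an exact permutation test over libraries, which takes the libraries of both cell types as exchangeable. Of 27 tests over the 9 genes and 3 pairs of cell types, 16 passed at a Benjamini-Hochberg adjusted p of 0.05 or less. This test was run only on the 9 genes, which were chosen with earlier results of these data known, and the share over all genes was not computed. The count therefore does not show that these genes differ more often than others. Its adjustment covers these 27 tests only, so its adjusted p cannot be compared with that of limma over all genes tested. The smallest exact two-sided p that 6 libraries against 6 allow is 0.0022, and 11 tests reached it (adjusted p = 0.0053). Tet3 was among them both for nB over GCB, by 1.04, and for nB over BMPC, by 2.00 on the log2 scale, and Tet2 both for nB over GCB, by 2.13, and for BMPC over GCB, by 1.85. Tdg passed for GCB over nB (difference 1.42, exact p = 0.0043, adjusted p = 0.0090), as did Dnmt3b for nB over GCB by 1.39 (exact p = 0.017, adjusted p = 0.029) and Tet3 for GCB over BMPC by 0.95 (exact p = 0.013, adjusted p = 0.023). Limma had called none of these differences in either genotype, nor that of Tet3 between GCB and nB. The Dnmt3b result was lost without sufficient GCB replicate 1 (exact adjusted p = 0.055) or 3 (0.051). Dnmt1 in BMPC against nB (-1.04, exact p = 0.048, adjusted p = 0.075) and Tet1 in GCB against nB (-0.36, exact p = 0.074, adjusted p = 0.10) did not.

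Genotype was compared within each cell type. No member was called by limma in nB, where 6 genes or 0.0521% of all genes tested were, nor in GCB, where 0% of all genes were, nor in BMPC, where 3.98% were. The last share depended on the fit: 459 genes were called in BMPC, and the count became 0 with only the groups compared in the fit, 18 with library weights and 922 without deficient BMPC replicate 1. At an unadjusted p under 0.05 there were 0 members in nB and GCB and 1 of 8 in BMPC, Dnmt1, beside 2.71, 1.08 and 20.3% of all genes. In GCB 124 genes had an unadjusted p under 0.05, and 2 were called when reads recovered from the values were tested with voom, neither of them a member. The 8 differences lay between -0.50 and 0.23 in nB and between -0.52 and 0.57 in GCB, and their 95% confidence intervals reached from -2.14 to 1.73 and from -1.81 to 2.21, so smaller differences were not detectable. In BMPC they lay between -1.51 for Dnmt1 and 1.21 for Dnmt3b. No member passed the test of a difference between genotypes in the change from nB. For the change to GCB 0% of all genes passed this interaction test, 204 had an unadjusted p under 0.05 and voom called 0, and for the change to BMPC 0.555% passed. Before adjustment the 95% confidence interval for Dnmt1 in the latter, -3.04 to -0.20, did not reach 0.

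Division differs between these cells. The 8 cell cycle genes Mki67, Top2a, Ccnb1, Cdk1, Mcm2, Mcm3, Mcm5 and Rrm2 summed to 67.4 to 101 FPKM in nB, 2039 to 2264 FPKM in GCB and 371 to 768 FPKM in BMPC. The group means of Uhrf1 had the same order, whereas Dnmt1 and Mbd2 were not called higher in BMPC than in nB. The gene most like Uhrf1 over the 18 libraries was Hspa2 (Pearson r = 0.953), then Apitd1 (0.943) and the proliferation gene Mki67 (0.937). For Mbd2 the closest were Psrc1 (0.956), Clspn (0.952) and Ncaph (0.951), the latter 2 a replication checkpoint mediator and a condensin subunit, and for Dnmt1 Acat3 (0.954), Acat2 (0.943) and Lrrc40 (0.935).

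Among the genes low in GCB, Dnmt3a was most like Arap2 (Pearson r = 0.953), Kctd12 (0.941) and Klf3 (0.938), and Tet2 most like Anxa5 (0.890), Cyba (0.882) and Map3k1 (0.877). Tet3 had Chd8 (0.948), Slc12a9 (0.944) and Samd9l (0.929), Tdg had Hirip3 (0.873), Sh2d1b1 (0.844) and Doc2a (0.841), and Dnmt3b had Gm4841 (0.805), Dnajc28 (0.787) and Vps37c (0.785). The libraries fall into 3 cell types and share depth and scaling, so these values describe likeness of pattern only. They were lowest for Dnmt3b and Tdg, the tested genes with the widest spread within groups.

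**Figure D3:**
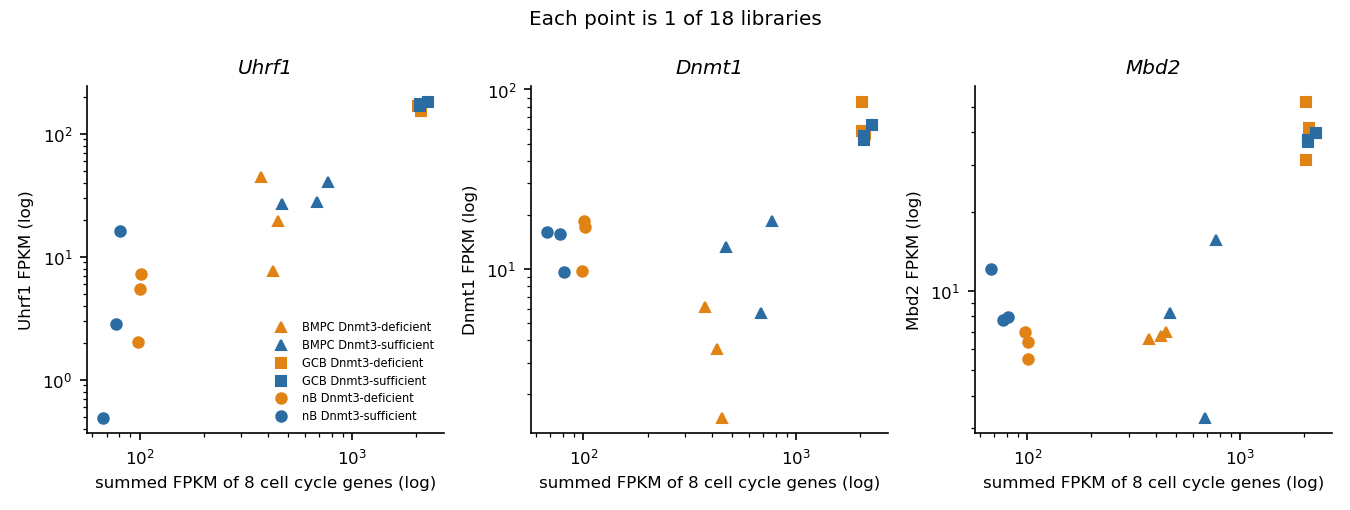
FPKM of Uhrf1, Dnmt1 and Mbd2 (vertical, log) against the summed FPKM of 8 cell cycle genes (horizontal, log) in each of the 18 libraries. Circles are nB, squares GCB and triangles BMPC, blue Dnmt3-sufficient and orange Dnmt3-deficient. BMPC libraries have 371 to 768 FPKM of cell cycle genes, more than any nB library. Their Uhrf1, at 7.68 to 44.8 FPKM, overlaps that of nB, which reaches 16.2 FPKM, as do their Dnmt1 and Mbd2.

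Uhrf1 and Dnmt1 rose together from nB to GCB, and their promoters are shown for that reason. Windows of 250 bases before each annotated start (RefSeq, GRCm38.p6) were found for all of the 9 genes but Mbd2, 13 windows in all, as some genes have several starts. They were searched on both strands for the E2F words TTTCCCGC, TTTGGCGC, TTTCGCGC and TTTGCCGC, for CCAAT, for the GC box GGGCGG and for the cell cycle homology region TTTGAA. E2F words mark many genes of the S phase. They were found in 2 of the 13 windows, 1 of Uhrf1 and 1 of Dnmt1, and in 1.86% of all 32851 windows. CCAAT was found in 6 of the 13 windows, those of Dnmt1, Tdg, Tet3 and Uhrf1, and in 33.9% of all windows. The GC box was found in 10 of 13 (32.7% of all) and TTTGAA in 2 of 13 (16% of all). The window of the second Uhrf1 start, chr17:56304063-56304312 on the plus strand, has 30 CpG sites against a median of 6 over all windows, and is printed with its E2F word and CCAAT in capitals.
Uhrf1, second start: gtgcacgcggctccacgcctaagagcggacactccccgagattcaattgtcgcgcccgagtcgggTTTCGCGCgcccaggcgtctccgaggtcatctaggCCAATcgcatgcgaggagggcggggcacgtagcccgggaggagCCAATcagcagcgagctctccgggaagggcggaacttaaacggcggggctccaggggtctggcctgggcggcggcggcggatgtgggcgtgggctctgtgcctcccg
Uhrf1, E2F word, chr17:56304117-56304146, plus strand: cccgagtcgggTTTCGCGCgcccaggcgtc
Dnmt1, E2F word, chr9:20952824-20952853, minus strand: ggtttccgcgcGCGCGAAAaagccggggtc
The Dnmt1 word is on the opposite strand and lies before the third annotated start, whose window has 26 CpG sites. The windows of the first Uhrf1 start (10 CpG sites) and of the first and second Dnmt1 starts (2 and 7) held no E2F word. The second Dnmt1 window spans chr9:20952980-20953229 on the minus strand, so the Dnmt1 word lies downstream of that start. Which start these cells use was not tested, and a match is a description of letters only. Of the genes called lower in GCB than in nB, Tet2 had the most CpG sites of the 8 genes, 51 before its start. Dnmt3a had 38, 40 and 15 before its 3 starts, and neither Tet2 nor Dnmt3a held an E2F word or CCAAT there.

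Partners of the writers were counted from a list of 8 genes. Dnmt3l, the cofactor of the de novo enzymes in germ cells, was at 0 in all 18 libraries, Zfp57 had reads in 1 library only, and 6 were tested. From nB to GCB 3 of these 6 rose in each genotype, against 7.22 and 6.31% of all genes tested, and none fell, with a median change of 1.56 in sufficient and 1.54 in deficient mice against -0.11 and -0.13 over all genes tested. Hells, a remodeler needed for methylation of repeats, went from 2.99 to 8.96 FPKM in nB to 61.6 to 94.0 FPKM in GCB (change 3.67, limma adjusted p = 0.0048, and 3.44, adjusted p = 0.0084). Its partner Cdca7 went from 5.37 to 21.3 FPKM to 117 to 163 FPKM (3.30 and 3.39), and Pcna, the replication clamp that also binds Dnmt1, from 84.3 to 107 FPKM to 437 to 565 FPKM (2.42 and 2.43).

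From nB to BMPC 1 of the 6 partners of the writers rose in both genotypes, against 9.74 and 6.85% of all genes called higher. This was Pcna (1.88 and 1.28, limma adjusted p = 8.2e-06 and 0.00035). Of the 6, 0 fell in sufficient and 2 in deficient mice, against 27.6 and 30.6% of all genes called lower. Uhrf2, the paralogue of Uhrf1, was the 1 of the 6 that was called between genotypes in BMPC, where 3.98% of all genes were. It measured 4.09 to 15.95 FPKM in sufficient and 0 to 3.56 FPKM in deficient BMPC (-2.33, adjusted p = 0.033), with 54 to 365 reads in sufficient and 35, 0 and 0 reads in deficient BMPC, and 3.25 to 6.52 FPKM in all nB and GCB libraries. The Uhrf2 call was lost with only the groups compared (adjusted p = 0.78), with library weights (0.60) and without a filter (0.057), and without any 1 of 7 libraries, among them sufficient BMPC replicate 2 (0.083).

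Beside Mbd2, 7 other genes were tested from a list of methyl readers and members of their families. Of these 7, 0 were called higher from nB to GCB in either genotype, against 7.22 and 6.31% of all genes tested. In sufficient mice 1 was called lower and in deficient mice 0, against 6.93 and 6.61% of all genes tested. Mbd4, a reader that is also a glycosylase, had 12.0 to 21.7 FPKM in nB and 61.2 to 78.3 FPKM in GCB, with no overlap. The differences of 2.06 (limma adjusted p = 0.064) and 2.09 (adjusted p = 0.063) did not pass. The fit gives each gene a single spread drawn from all 18 libraries, BMPC included. For Mbd4 the SD on the log2 scale reached 1.41 among BMPC libraries, against 0.32 among nB libraries and 0.12 among GCB libraries. The missing call therefore does not show that Mbd4 stayed level from nB to GCB. From nB to BMPC 3 of 7 fell in each genotype, against 27.6 and 30.6% of all genes called lower. Among them were Mbd4 (-2.20 and -2.33) and Zbtb4, a zinc finger reader. Zbtb4 had 7.28 to 15.5 FPKM in nB and no more than 1.87 FPKM in BMPC. Mbd3, which sits in NuRD in place of Mbd2, was at 11.7 to 41.0 FPKM in sufficient and 2.90 to 4.85 FPKM in deficient BMPC. These values came from 43 to 261 and from 10 to 11 reads. With a difference of -2.05 (limma adjusted p = 0.027) it was 1 of these 7 genes called, where 3.98% of all genes were. The Mbd3 call was lost with only the groups compared (adjusted p = 0.74), with library weights (0.60), with voom (0.12) and without sufficient BMPC replicate 2 (0.060).

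Of 10 NuRD genes, all tested, 2 rose from nB to GCB in each genotype, where 7.22 and 6.31% of all genes rose, and none fell. These were the histone binding subunits Rbbp4, from 52.1 to 89.5 FPKM in nB to 180 to 210 FPKM in GCB (1.52 and 1.45), and Rbbp7, from 54.8 to 118 FPKM to 202 to 310 FPKM (1.85 and 1.48). From nB to BMPC 2 of 10 fell in sufficient and 3 in deficient mice and none rose, against 27.6 and 30.6% of all genes called lower. The remodeling ATPase Chd4 had 15.4 to 40.2 FPKM in nB and 0 to 6.97 FPKM in BMPC (-3.51, limma adjusted p = 0.00030, and -4.45, adjusted p = 3.6e-05), and the deacetylase Hdac1 had 181 to 242 FPKM in nB and 4.54 to 83.0 FPKM in BMPC (-2.64 and -2.43).

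Partners of demethylation and repair were counted from a list with 11 tested genes. From nB to GCB 2 rose and 3 fell in sufficient mice, where 7.22% of all genes rose and 6.93% fell, and 2 rose and 0 fell in deficient mice, where 6.31% rose and 6.61% fell. The stress gene Gadd45b had 2.79 to 10.03 FPKM in nB and 41.3 to 66.9 FPKM in GCB (2.88 and 3.38), while its paralogue Gadd45g went from 17.7 to 40.1 FPKM in nB to 5.20 to 13.9 FPKM in GCB (-2.03, limma adjusted p = 0.0036, and -1.31, which did not pass) and was at 0 in all BMPC libraries. From nB to BMPC 4 of 11 fell in sufficient and 6 in deficient mice, against 27.6 and 30.6% of all genes called lower, and none rose, among them Parp1, which signals DNA breaks, from 97.6 to 162 FPKM to 0.578 to 35.04 FPKM (-2.38 and -3.93). No gene of this list was called between genotypes.

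**Figure D4:**
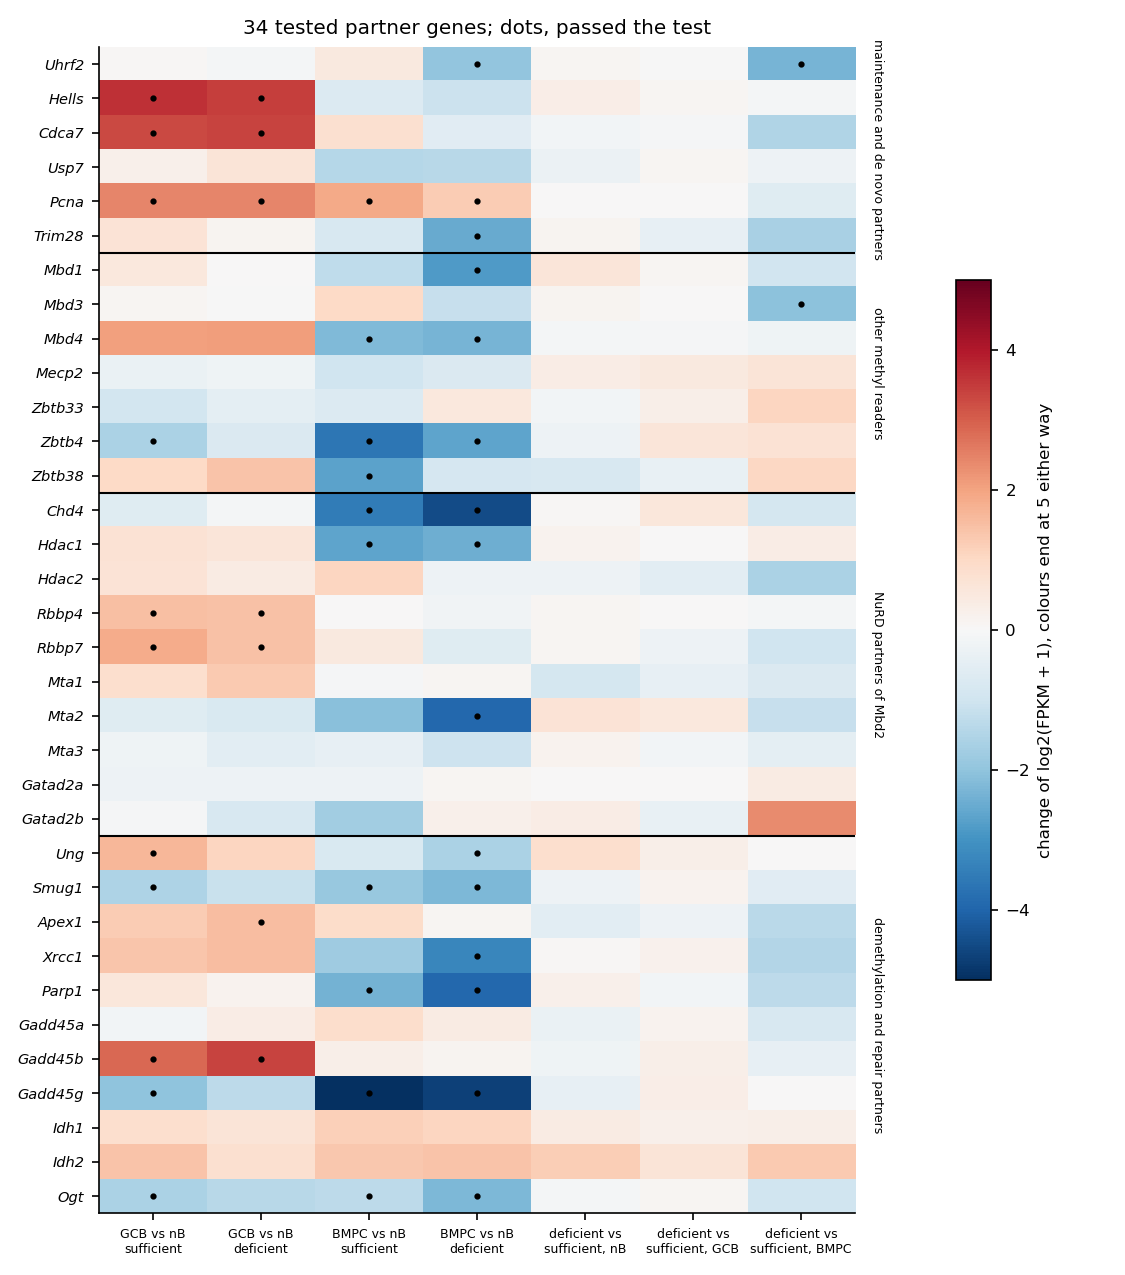
Change of 34 tested partner genes (rows, in 4 lists) in 7 comparisons (columns), as colour on the log2(FPKM + 1) scale that ends at 5 in either direction; a dot marks a change that passed the test. Dots in the GCB columns are mostly red, with Hells, Cdca7, Pcna, Rbbp4, Rbbp7 and Gadd45b marked in both genotypes, those in the BMPC columns are mostly blue, and only Uhrf2 and Mbd3 are marked between genotypes, in BMPC.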

How the data were processed

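RNA of sorted cells was copied and amplified by PCR and sequenced. The authors mapped reads to mm9 with TopHat, counted reads on exons of UCSC KnownGenes with summarizeOverlaps and deposited FPKM values; the submitters' processing notes also name edgeR 3.12.1 and R 3.2.2. Whether counting used strand is not given in the sources used here, so overlapping antisense genes cannot be told apart. The deposited columns of fold changes and FDR hold the authors' own comparisons and were not used. FPKM times exon length gave whole reads for 100% of values (within 0.05 read), so reads and depth were recovered; amplified reads are not independent molecules.

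Groups and sex came from the labels. limma 3.58.1 (R 4.3.3) was fitted to log2(FPKM + 1) with a mean for each of the 6 groups, all 18 libraries and an intensity trend, two-sided, with Benjamini-Hochberg adjustment over the 11522 genes that exceeded 1 FPKM in 2 or more libraries. The test was checked on counts simulated with 1 spread setting for all groups. That check does not cover groups of unequal spread, such as BMPC, whose library weights were 0.21 to 0.36 against 1.03 to 4.2 elsewhere. Exact permutation tests used Python 3.11.15. The 9 genes and the lists of partners and markers were chosen with earlier results of these data known; partner genes are named where they passed in both genotypes against nB or between genotypes, or had 0 in all libraries, at most 4 of a list by size, and Zfp57 was named after its values were seen. Some genes of these lists are not reported here and were left out of the counts and sums. Per the study's methods, nB and BMPC libraries came from single mice and GCB libraries from pools of 2. Alternatives were another pseudocount (0.1), 2 filters, another scaling, fewer groups in the fit, library weights, sex as a covariate, voom on recovered reads, other thresholds and leaving out each library.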

Additional observations from a re-analysis of the deposited data

How the results depend on the processing

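Of the counts of members called, 8 of 12 stayed within 1.5 times under every alternative, leaving out a library included. These include the counts that were 0 throughout, where few or none of all genes were called. They were those between genotypes in nB and in GCB, and both for the genotype difference in the change from nB. With every library kept, the count for GCB against nB, 5 in either genotype, ranged from 4 to 7 in sufficient and from 3 to 6 in deficient mice. The count for BMPC against nB in deficient mice, 4, was 2 with a pseudocount of 0.1, without a filter, with library weights and at an adjusted p of 0.01, and 1 with only the groups compared and with voom; in sufficient mice, 3, it was 1 with only the groups compared. The calls lost there in deficient mice were mostly those of Dnmt3a and Uhrf1, that of Dnmt3a also with scaling by the median of ratios and that of Uhrf1 also with sex as a covariate; that of Dnmt1 was lost with only the groups compared and with voom. In deficient mice the count for GCB against nB, 5, was 3 at an adjusted p of 0.01. Leaving out 1 library gave 2 to 4 in deficient BMPC against nB, 3 to 6 in deficient GCB against nB, and 0 to 1 in BMPC between genotypes. The sign of the Dnmt3a difference between genotypes in nB turned with library weights (0.0092) and voom (0.032). Leaving out 1 library moved it from -0.26 to 0.18, in GCB from -0.077 to 0.14 and in BMPC from -0.19 to 0.79. It moved Dnmt3b between genotypes in nB from -0.84 to 0.45, Dnmt3b from nB to deficient BMPC from -1.17 to 0.51, and Dnmt1 from nB to sufficient BMPC from -0.56 to 0.21. The cause was not tested. No other value printed changed sign; of 50 changes not printed singly, 23 did. With the label number of GCB libraries as a replicate block, 0 members differed between genotypes, as without it; same-numbered libraries did not deviate together (r = 0.026, -8.1e-05 and -0.017), so the numbers were not taken as pairs. BMPC libraries are the shallowest, which limits low genes there.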
